A study of Homo sapiens with 240 samples.

Results

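The 10 plasma membrane amino acid transporter genes that belong to, or neighbour, the amino acid stress response are described here across every arm, compound and time of an RNA sequencing study of HEK293T cells, a human embryonic kidney line. The members are SLC7A11, SLC7A5, SLC3A2, SLC7A1, SLC7A3, SLC6A9, SLC1A4, SLC1A5, SLC38A2 and SLC1A3, taken by symbol from each of 5 expression tables, which makes 10 genes of 27234 listed per table. All 10 were found in each table and all 10 passed the filter on low values, a level of at least 1 TPM, a transcript abundance scaled for gene length and library depth, in at least 3 libraries of the table. SLC7A3 passed it in the AMPK table through the wild-type arm alone, so it had to differ between the arms of that table and is left out of the counts of members that differ there.

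Amino acid transporters of this group are known from cells short of amino acids or under mitochondrial or endoplasmic reticulum stress. Phosphorylation of eIF2alpha then favours translation of ATF4, a transcription factor that, with C/EBP partners and CHOP (DDIT3), binds C/EBP-ATF response elements of genes for amino acid uptake, synthesis and tRNA charging. SLC7A11 and SLC3A2 form system xc-, which brings in cystine for glutathione in exchange for glutamate. SLC7A5 with SLC3A2 exchanges leucine and other large neutral amino acids for glutamine, a route that feeds the mTORC1 kinase. SLC7A11 is also a target of NRF2, which binds antioxidant response elements.

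The series has 240 libraries of polyA RNA in 80 groups of 3 libraries, over 5 tables and 10 arms, all HEK293T grown in DMEM with serum. The AMPK table has 51 libraries of wild-type cells and 51 of cells without the kinase AMPK, each with DMSO and with 4 compounds for 2, 4, 8 and 16 h. The compounds were 991, a direct AMPK activator, the uncoupler CCCP, and phenformin and rotenone, inhibitors of respiratory complex I. The FNIP1 table has 15 libraries of FNIP1 knockout cells given back wild-type FNIP1 and 15 given back SA5, a FNIP1 with its AMPK phosphorylation sites changed to alanine. The other tables have 18 libraries per arm and compare wild-type cells with cells lacking the lysosomal transcription factors TFEB and TFE3, wild-type cells with cells lacking the nuclear receptor ERRalpha (ESRRA), and control siRNA with siRNA against the coactivator PGC1A. These 4 tables used 991 only, for 2, 4, 8 and 16 h, and in the last 3 also for 24 h. DMSO libraries stand at 0 h only, so a compound and its time in culture cannot be told apart, and doses are not given in the labels. The labels do not say whether the 3 libraries of a group were separate cultures, so p-values measure the spread between these libraries, which may be technical. In bulk RNA, fewer cells and less RNA per cell cannot be told apart. Knockout and wild-type arms are different cells, so the lost gene and any other difference between those cells cannot be told apart either.

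The targeted genes were lower in most altered arms. PRKAA1, a catalytic subunit of AMPK, stood at 2.15 to 3.73 TPM in the AMPK knockout against 6.03 to 10.6 in wild type, ESRRA at 4.44 to 8.46 against 8.01 to 12.7 and PPARGC1A at 0.015 to 0.107 against 0.254 to 0.484. TFEB overlapped between arms, at 1.32 to 2.72 in the knockout and 1.24 to 3.56 TPM in wild type, as did TFE3, at 7.18 to 10.2 and 8.82 to 14.01, so transcript levels do not check that label. FNIP1 stood at 5.47 and 45.05 TPM in 2 SA5 libraries, DMSO replicate 1 and 991 8 h replicate 1, against 172 to 184 in the other libraries of those groups, and both stand apart from their group over all genes. The whole SA5 arm lay lower, at 5.47 to 195 TPM against 221 to 271 with wild-type FNIP1. The FNIP1 level and the SA5 change therefore cannot be told apart. Of the 7 markers fixed for embryonic kidney and HEK cells, 5 or 6 passed the filter in each table, against 1 of 9 for adult kidney (LRP2) and 1 of 6 for other cell types (COL1A1). LHX1 failed in each table, PAX2 in the TFEB and TFE3 table and NEFM in the ESRRA and siRNA tables. PAX2 was low, with medians of 0.41 to 1.14 TPM. Of 27234 genes listed, 13317 to 13746 passed, so these counts alone do not identify the cells. In addition, 3 wild-type libraries tagged phenformin 2 h carry a description that names 991, and 3 tagged CCCP 4 h one that names 16 h. They were placed by title and tags.

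Promoter sequences are shown because the known factors of the response bind short elements. RefSeq windows of GRCh38.p14, from 250 bases before to 50 after a start site, were found for 8 of the 10 members, with 15 windows in all and none for SLC7A11 and SLC7A3. The C/EBP-ATF element was searched as TGATGNAA and the antioxidant response element core as TGACNNNGC, on both strands, and no match of the first overlapped a match of the second. The first was in 5 of the 15 windows, against 3.62 percent of 35116 windows, and the second in 5 of 15, against 13.3 percent. The stretches are written 5' to 3' on the gene's strand, with the matched letters in capitals. Windows of SLC6A9 and SLC38A2 held neither set of letters.
SLC7A1, the arginine and lysine carrier, chr13:29595674-29595773, minus strand, both elements: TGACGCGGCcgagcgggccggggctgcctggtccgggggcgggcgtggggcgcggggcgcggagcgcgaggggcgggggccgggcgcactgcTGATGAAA
SLC1A4, a carrier of serine, alanine and cysteine, chr2:64989314-64989413, plus strand, C/EBP-ATF letters on the opposite strand: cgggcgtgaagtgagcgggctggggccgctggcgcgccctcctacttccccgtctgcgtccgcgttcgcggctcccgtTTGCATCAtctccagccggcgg
SLC3A2, chr11:62881591-62881690, plus strand, antioxidant element letters: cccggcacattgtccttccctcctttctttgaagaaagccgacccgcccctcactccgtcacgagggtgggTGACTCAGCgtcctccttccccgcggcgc
SLC3A2, same window, chr11:62881719-62881748, C/EBP-ATF letters on the opposite strand: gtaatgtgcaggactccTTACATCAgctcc
SLC7A5, chr16:87869493-87869592, minus strand, antioxidant element letters: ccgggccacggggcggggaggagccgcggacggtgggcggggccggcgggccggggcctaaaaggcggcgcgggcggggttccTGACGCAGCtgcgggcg
SLC1A5, the glutamine carrier, chr19:46784884-46784983, minus strand, C/EBP-ATF letters: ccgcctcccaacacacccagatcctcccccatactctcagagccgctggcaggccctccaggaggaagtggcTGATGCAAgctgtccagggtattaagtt
SLC1A5, second window, chr19:46787376-46787475, minus strand, antioxidant element letters on the opposite strand: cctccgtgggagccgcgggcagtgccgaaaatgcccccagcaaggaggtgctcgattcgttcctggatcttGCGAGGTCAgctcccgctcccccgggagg
SLC1A3, a glutamate carrier, chr5:36596338-36596395, plus strand, C/EBP-ATF letters: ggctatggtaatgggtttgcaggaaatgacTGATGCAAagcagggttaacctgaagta
SLC1A3, second window, chr5:36606400-36606429, plus strand, antioxidant element letters: gacagtgaacTGACAAAGCgtgaaagtggt
The start sites of the SLC7A1 and SLC7A5 windows and of the second SLC1A5 window lie 0, 8 and 5 bases from the start of the transcript in the tables, and that of the second SLC1A3 window 251 bases. Those of SLC3A2 and SLC1A4 and of the first SLC1A5 and SLC1A3 windows lie 827, 954, 2474 and 9767 bases from it, so they are other starts. The first SLC1A3 window opens no GENCODE transcript of the gene. A match is a description of letters and no site of binding was measured.

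Wild-type cells of the AMPK table came first, at 16 h. With 991, CCCP and rotenone 9 members rose and SLC1A3 fell, and with phenformin 9 rose and SLC1A3 did not pass (adjusted p under 0.05, limma on log2(TPM + 1), adjusted over 13617 genes). Calls were common among all genes: 41.9 percent were called higher and 26.9 lower with 991, 44.1 and 26.6 with CCCP, 45.3 and 34.9 with phenformin, and 36.2 and 29.2 with rotenone. The members' count is therefore best read beside their size. The median log2 change of the 10 was 0.53 with 991, 0.85 with CCCP, 1.32 with phenformin and 0.61 with rotenone, where the median of all genes was 0.07, 0.09, 0.07 and 0.03.

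**Figure D1:**
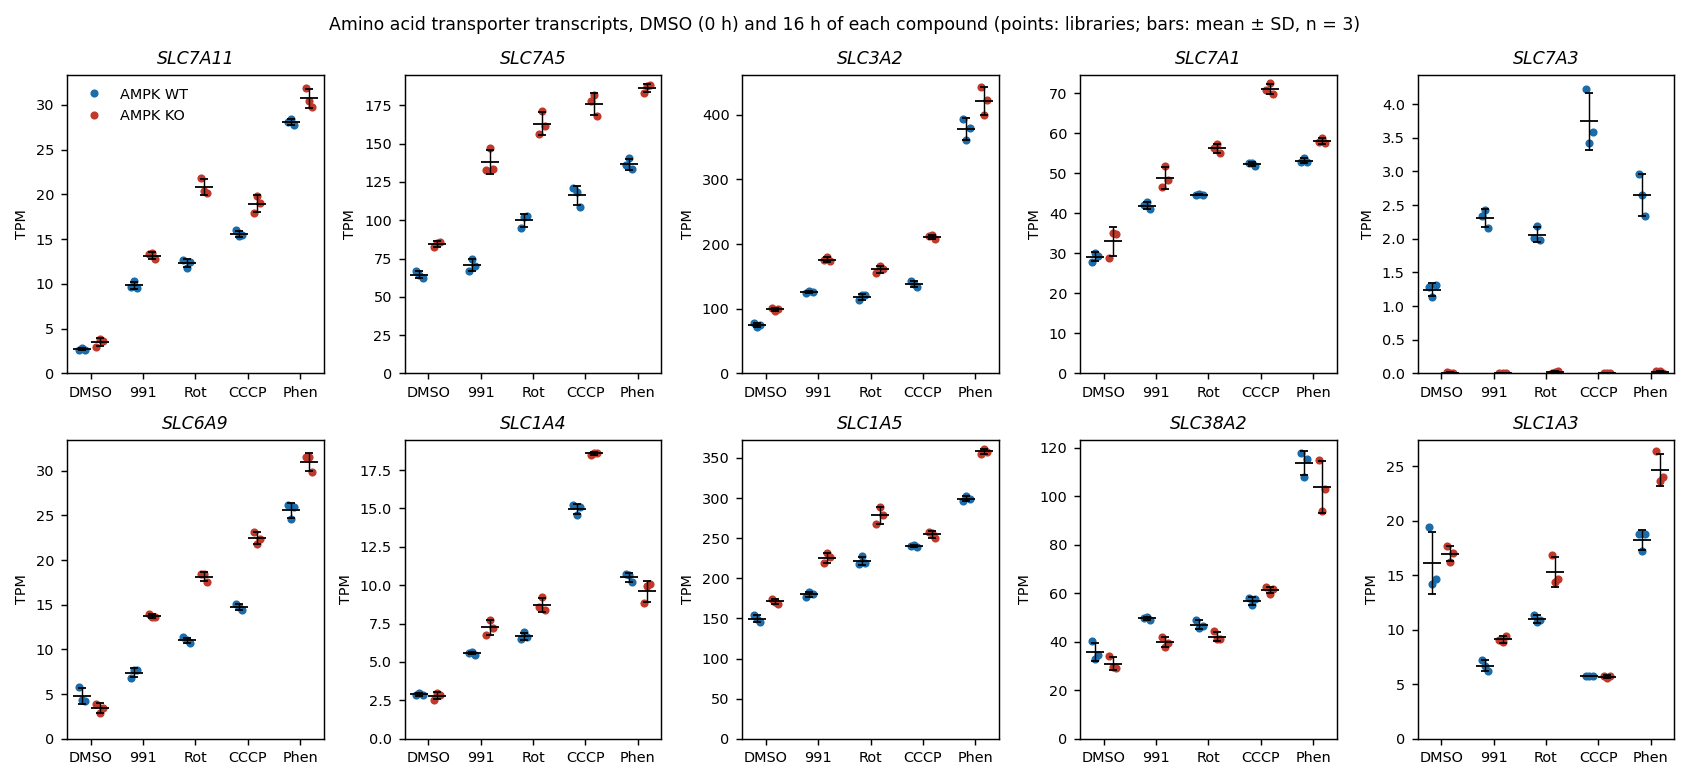
TPM of each transporter (linear axis from 0, a panel per gene) in the AMPK table under DMSO and after 16 h of 991, rotenone, CCCP and phenformin, wild type in blue and AMPK knockout in red. Points are libraries and bars the mean with its SD (n = 3). SLC7A11 stands at 2.62 to 2.81 TPM under DMSO and at 27.8 to 28.4 with phenformin in wild type, and SLC7A3 stays near 0 in the knockout.

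SLC7A11, the cystine carrier of system xc- (GRCh38 chromosome 4, 138164094 to 138242349, minus strand), was at 2.62, 2.81 and 2.66 TPM under DMSO. It was at 9.68, 10.3 and 9.53 TPM with 991, 12.7, 11.8 and 12.5 with rotenone, 16.0, 15.4 and 15.5 with CCCP, and 28.1, 28.4 and 27.8 with phenformin. No treated library overlapped DMSO and the 4 compounds did not overlap each other. The log2 changes were 1.55, 1.85, 2.17 and 2.98 in that order, each with an SE of 0.08. Among 13617 genes SLC7A11 ranked 7 from the top with 991, 5 with rotenone, and 9 with CCCP and with phenformin.

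SLC3A2 (4F2hc, chromosome 11, 62880872 to 62888883, plus strand) is the heavy chain that carries both SLC7A11 and SLC7A5 to the membrane. It stood at 78.5, 72.6 and 75.1 TPM under DMSO and at 394, 361 and 380 with phenformin. With 991 it was at 124, 127 and 126, with rotenone at 113, 121 and 121 and with CCCP at 143, 138 and 134 TPM. Phenformin thus stood above every other library, with a log2 change of 2.31 ± 0.06 (SE) against 0.64 to 0.87 for the other compounds.

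SLC7A5 (LAT1, chromosome 16, 87830016 to 87869499, minus strand), the leucine exchanger, was at 66.8, 64.3 and 62.1 TPM under DMSO and at 66.8, 74.6 and 70.2 with 991. Those groups touched, the log2 change was 0.13 ± 0.05 (adjusted p = 0.029), and the call ended without replicate 2 of every group (0.087, adjusted p = 0.29), without replicate 3 (0.11, adjusted p = 0.21) and with median-ratio scaling (0.038, adjusted p = 0.57). With rotenone it stood at 95.2, 102.3 and 103 TPM, with CCCP at 121, 119 and 109, and with phenformin at 136, 140 and 133. With 991 the heavy chain SLC3A2 had a change of 0.73 and its leucine partner 0.13. MIR6775 lies inside SLC7A5 and the pseudogene SLC7A5P2, at a median of 0.45 TPM in the AMPK table, may share reads with it. The use of strand in counting is not given in the sources used here.

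The cationic amino acid carriers SLC7A1 (CAT1, chromosome 13, 29509414 to 29595688, minus strand) and SLC7A3 (CAT3, chromosome X, 70925580 to 70931125, minus strand) bring in arginine and lysine. SLC7A1 rose from 27.9, 30.1 and 29.3 TPM to 42.1, 42.7 and 41.002 with 991, 44.5, 44.9 and 44.6 with rotenone, 52.6, 52.7 and 51.8 with CCCP and 52.9, 53.8 and 52.7 with phenformin. CCCP and phenformin gave overlapping values for it, and its changes of 0.51, 0.60, 0.82 and 0.85 were the narrowest span among the members that rose with all 4. SLC7A3 was low, at 1.29, 1.13 and 1.32 TPM under DMSO and 4.23, 3.42 and 3.58 with CCCP, the compound with its highest level. At such levels the pseudocount of 1 shrinks the log2 change, which was 1.08 ± 0.06 with CCCP and 0.45 to 0.70 with the others.

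SLC6A9 (GlyT1, chromosome 1, 43996483 to 44031123, minus strand) carries glycine, the last building block of glutathione. It was at 5.83, 4.35 and 4.23 TPM under DMSO, 6.79, 7.70 and 7.66 with 991, 11.3, 11.03 and 10.8 with rotenone, 15.1, 14.7 and 14.5 with CCCP and 26.2, 24.6 and 25.9 with phenformin. The order of the compounds was that of SLC7A11, with log2 changes of 0.54, 1.06, 1.45 and 2.20 (SE 0.12). CCDC24 overlaps the end of SLC6A9 and had a median of 2.17 TPM in the AMPK table.

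Among the carriers of neutral amino acids, SLC1A4 (ASCT1, chromosome 2, 64988445 to 65023866, plus strand) departed from that order. It was at 2.83, 3.01 and 2.87 TPM under DMSO and at 15.2, 14.6 and 15.1 with CCCP, above the 10.7, 10.6 and 10.2 seen with phenformin. Its log2 changes were 2.03 ± 0.07 with CCCP, 1.56 with phenformin, 0.98 with rotenone and 0.75 with 991. SLC1A5 (ASCT2, chromosome 19, 46774883 to 46787288, minus strand), at 154, 149 and 145 TPM the most abundant member under DMSO, reached 177, 183 and 180 with 991 and 297, 302 and 299 with phenformin. SLC38A2 (SNAT2, chromosome 12, 46358188 to 46372862, minus strand), a sodium-coupled carrier of neutral amino acids, was at 40.2, 33.1 and 34.4 TPM under DMSO and 118, 108 and 115 with phenformin. With the other 3 compounds SLC38A2 stood between 45.6 and 57.99 TPM, above DMSO in every library.

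SLC1A3 (EAAT1, chromosome 5, 36606355 to 36688334, plus strand), a glutamate and aspartate carrier, was the member that fell. It went from 19.4, 14.2 and 14.7 TPM to 7.23, 6.63 and 6.25 with 991, 11.4, 10.7 and 10.9 with rotenone and 5.75, 5.73 and 5.77 with CCCP, none of which overlapped DMSO. Phenformin left it at 18.8, 17.2 and 18.8 TPM, within the DMSO range (log2 change 0.18 ± 0.12, adjusted p = 0.15). Without replicate 1 of every group, whose DMSO library was the highest, that change was 0.30 and passed. Its log2 changes with 991, rotenone and CCCP were -1.14, -0.50 and -1.33. The tables give SLC1A3 and SLC38A2 transcripts of different length, so levels of these genes are not compared between tables.

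The 6 pairs of compounds were compared directly at 16 h in wild type, each adjusted over all genes. The doses are not in the labels, so each pair compares the treatments as given. Phenformin exceeded 991 in 10 of 10 members (71 percent of all genes differed in either direction), though SLC7A3 (0.14) did not pass with a pseudocount of 0.1 (adjusted p = 0.22), with median-ratio scaling, in a fit of these groups alone, or without replicate 1 or 3. In turn rotenone was below phenformin in 10 of 10 (69.4 percent). CCCP exceeded 991 in 8 (31.4 percent), with SLC3A2 (0.13 ± 0.06, adjusted p = 0.069) and SLC1A3 (-0.19 ± 0.12, adjusted p = 0.23) not past the threshold. Both passed in a fit of these groups alone, and SLC38A2 did not pass with median-ratio scaling, without the filter, or without replicate 2 or 3. Rotenone exceeded 991 in 6 (27.9 percent), with 0.50 ± 0.05 for SLC7A5 and 0.52 ± 0.12 for SLC6A9, while SLC38A2 (-0.08 ± 0.07), SLC3A2 (-0.09 ± 0.06), SLC7A1 (0.09 ± 0.06) and SLC7A3 (-0.11 ± 0.06) did not pass. Of the 6, SLC1A4 did not pass without replicate 2 or 3 and SLC7A11 not without replicate 3 (0.27, adjusted p = 0.13), while SLC3A2 and SLC7A1 passed in a fit of these groups alone. Phenformin exceeded CCCP in 7 members and was below it in SLC1A4 (-0.47 ± 0.07, adjusted p = 6.0e-09) and SLC7A3 (-0.38 ± 0.06, adjusted p = 3.2e-08), with 69.7 percent of all genes called. SLC7A1 differed by 0.02 ± 0.06 in that pair (adjusted p = 0.76). Rotenone against CCCP gave 9 members lower and SLC1A3 higher (33.5 percent), and the lower SLC1A5 value, -0.11, did not pass with median-ratio scaling (-0.048, adjusted p = 0.52) or without the filter. Without replicate 2 or 3 the lower values of SLC1A5, SLC6A9 and SLC38A2 did not pass. The complex I inhibitors were furthest apart for SLC3A2 (-1.67 ± 0.06) and SLC38A2 (-1.25 ± 0.07, rotenone minus phenformin).

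**Figure D2:**
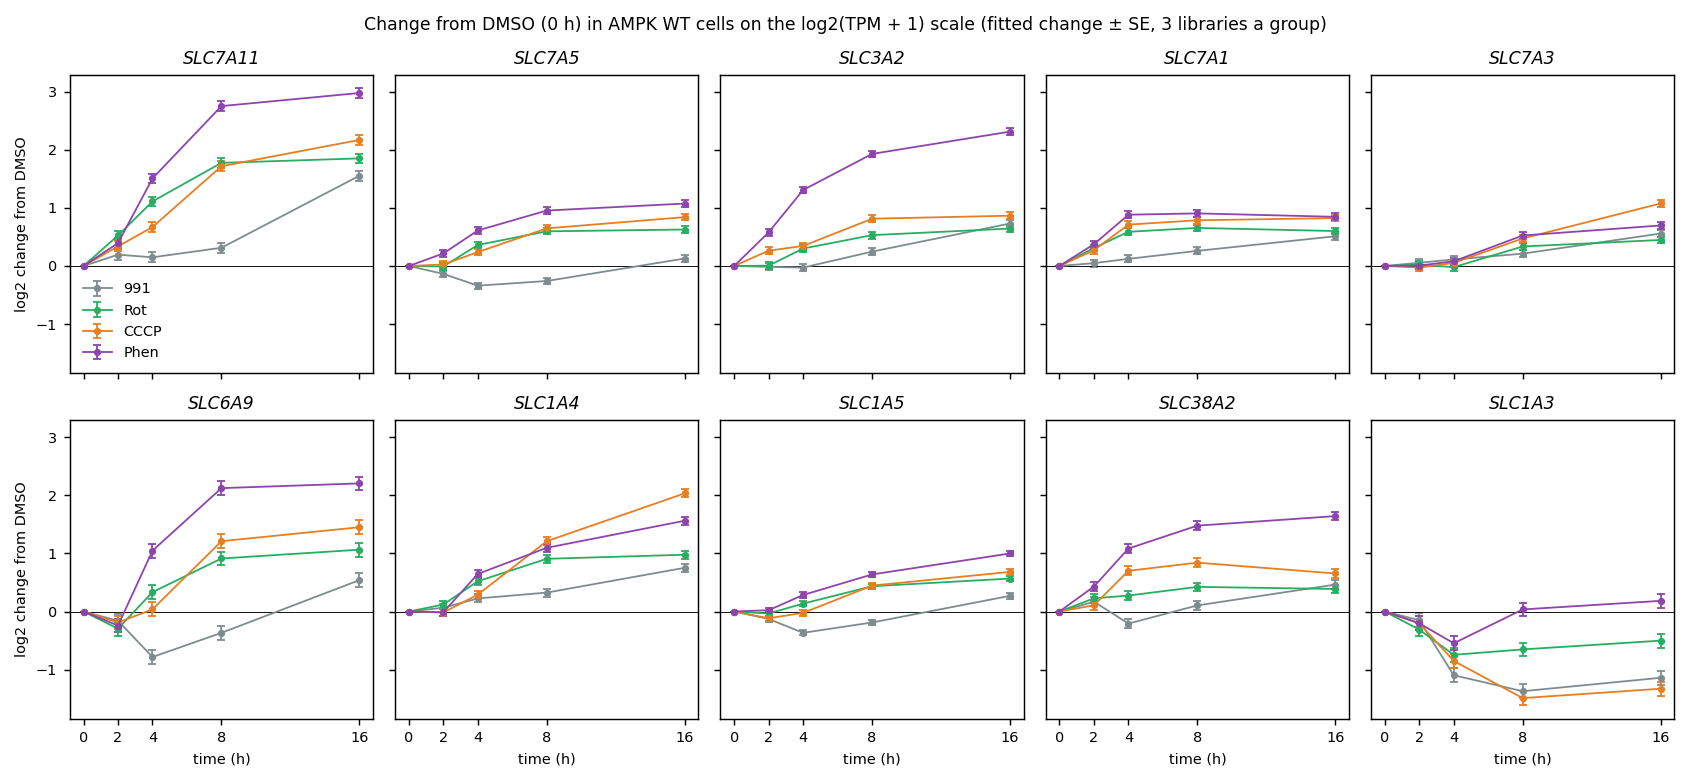
Log2 change from DMSO (limma estimate on log2(TPM + 1), bars are the SE) of each transporter against time from 0 to 16 h in wild-type cells of the AMPK table, with a line per compound. SLC7A11 rises by 2.75 by 8 h with phenformin, and SLC1A3 is lowest at 4 to 8 h.

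The members started to move at different times. For CCCP, phenformin and rotenone before 16 h, neither the shares of all genes called nor the alternatives are given here. Calls at these times are therefore a description. At 2 h SLC7A11 was already higher with CCCP (0.34), phenformin (0.39) and rotenone (0.53), and SLC7A1 with the same compounds (0.27, 0.38 and 0.31). SLC3A2 and SLC38A2 rose early with phenformin, by 0.58 and 0.43 at 2 h and 1.31 and 1.08 at 4 h. The 2 h phenformin libraries are those with a description that names 991. In the knockout, where labels do not conflict, phenformin at 2 h gave 0.66 for SLC3A2 and 0.45 for SLC38A2.

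SLC7A11 with phenformin went from 3.13, 4.39 and 4.14 TPM at 2 h to 10.3, 9.10 and 9.12 at 4 h and 24.1, 22.8 and 24.7 at 8 h. SLC7A1 was near its 16 h level by 4 h, at 52.3, 57.8 and 53.6 TPM. SLC6A9 did not rise at 2 h with any compound. It fell with rotenone (-0.30, adjusted p = 0.029) from DMSO libraries at 5.83, 4.35 and 4.23 TPM. It then rose by 1.05 at 4 h with phenformin. SLC7A3 moved late. At 4 h it had changed by -0.02 to 0.11 with the 4 compounds and none passed. By 8 h it was higher with each (0.21 to 0.52). With 991 others were later: the means of SLC7A5, SLC6A9 and SLC1A5 stood below DMSO at 8 h and above it at 16 h.

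**Figure D3:**
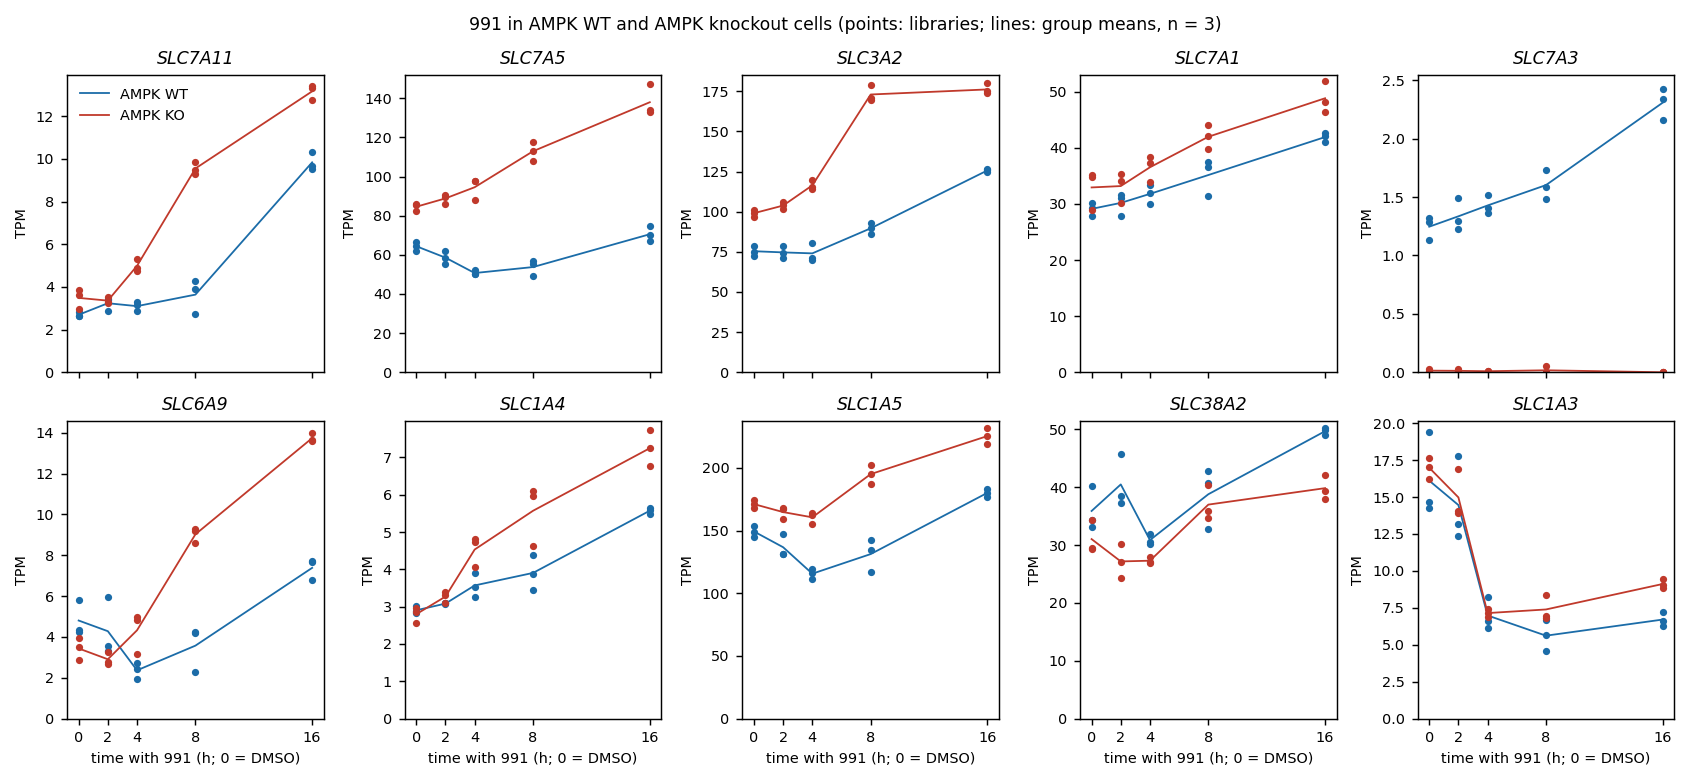
TPM of each transporter against hours with 991 in the AMPK table, points are libraries and lines group means, wild type and AMPK knockout in separate colours. At 8 h SLC6A9 stands at 2.27 to 4.25 TPM in wild type and 8.62 to 9.29 in the knockout.

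The activator 991 had a course of its own in wild-type cells. At 4 h only SLC1A4 passed as higher and 5 members were lower (27 percent of genes called higher, 18.9 lower), and at 8 h 5 were higher and 4 lower (41.3 and 22.7 percent). At 4 h SLC1A4 did not pass without replicate 1 (adjusted p = 0.060), without replicate 3 (0.070) or in a fit of these groups alone (0.084). SLC7A1 did pass there as higher without replicate 1, with quantile normalization and with a replicate block, and the lower SLC38A2 value failed in the first 2 of these and in the fit of these groups alone. At 8 h SLC7A11 (without replicate 2 or 3, or with these groups alone) and SLC7A3 (without replicate 2) did not pass, and SLC38A2 passed as higher without replicate 1. In cells without AMPK 5 were higher and SLC1A3 lower at 4 h (20.4 and 18.3 percent), and 8 higher and SLC1A3 lower at 8 h (30.9 and 24.3 percent). Of the 5, SLC7A1 passed in none of the fits with a replicate number left out (adjusted p = 0.082 to 0.12). SLC7A5 did not pass without replicate 2 or 3, and neither passed with median-ratio scaling or in a fit of these groups alone. SLC6A9 passed there as higher without replicate 1 (0.50). Of the 8, SLC38A2 did not pass without replicate 2 or 3, nor SLC1A5 without replicate 3. SLC6A9 in wild type was at 2.70, 2.44 and 1.95 TPM at 4 h and 2.27, 4.25 and 4.20 at 8 h, where replicate 1 was the low library. In the knockout SLC6A9 stood at 3.18, 4.96 and 4.84 TPM at 4 h and 8.62, 9.17 and 9.29 at 8 h. Without replicate 1 of every group, the wild-type change of SLC6A9 at 8 h went from -0.37 to -0.019 and did not pass.

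SLC7A5 fell in wild type to 49.96, 52.05 and 50.1 TPM at 4 h and was at 49.1, 57.1 and 55.1 at 8 h. In the knockout it rose from 82.5, 85.4 and 85.8 under DMSO to 113, 118 and 108 at 8 h, so the arms stood further apart with 991 than without. SLC7A11 at 8 h was at 2.73, 4.28 and 3.91 TPM in wild type and 9.49, 9.29 and 9.87 in the knockout. SLC1A5 fell to 117, 142 and 134 TPM at 8 h in wild type and rose from 174, 171 and 168 to 187, 196 and 203 in the knockout. The wild-type fall of SLC1A5 did not pass without replicate 1, the low library (-0.087, adjusted p = 0.059), or with quantile normalization (adjusted p = 0.066).

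The difference between the responses was tested directly, knockout minus wild type, each response taken from its own DMSO. It was positive for 5 members at 4 h (12.1 percent of all genes called), 6 at 8 h (21 percent) and 3 at 16 h (15 percent). Of the 5 at 4 h, SLC3A2 and SLC1A4 did not pass without replicate 2 or 3 and SLC1A5 not without replicate 3, and a fit of these groups alone left 2. At 8 h the 6 were SLC6A9 (1.55 ± 0.17, adjusted p = 1.1e-10), SLC7A11 (0.93 ± 0.12, adjusted p = 2.2e-08), SLC7A5 (0.67 ± 0.08), SLC3A2 (0.55 ± 0.08), SLC1A4 (0.46 ± 0.10) and SLC1A5 (0.38 ± 0.06). All 6 passed when any replicate number was left out. By 16 h SLC7A11 no longer differed past the threshold (0.11 ± 0.12, adjusted p = 0.59), with 13.3, 13.4 and 12.8 TPM in the knockout against 9.68, 10.3 and 9.53 in wild type. SLC6A9 (1.20 ± 0.17) and SLC7A5 (0.57 ± 0.08) still did, and SLC1A4 (0.37 ± 0.10) did not pass without replicate 2 or replicate 3. SLC7A3, at 0 to 0.053 TPM in every knockout library, was listed near 0 throughout, so its differences of response (-0.58 with 991) carry the wild-type change alone and are not counted.

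With the other compounds the knockout cells raised most of the same transporters. At 16 h 8 rose and SLC1A3 fell with 991 (34.8 percent of genes higher, 27.1 lower) and with CCCP (39.6 and 29.3 percent), 9 rose with phenformin (41.2 and 37.7 percent called higher and lower), and 8 rose with rotenone (35.3 and 27.9 percent). The members' median change was 0.63 with 991, 1.07 with CCCP, 1.30 with phenformin and 0.73 with rotenone. The median of all genes was 0.03, 0.05, 0.01 and 0.03. The members' medians include SLC7A3, which was near 0 in this arm. SLC7A11 in the knockout went from 2.97, 3.84 and 3.64 TPM to 17.9, 19.9 and 19.1 with CCCP and 31.9, 30.5 and 29.8 with phenformin. Its responses of 2.16 and 2.83 differed from wild type by -0.01 and -0.15, and neither difference passed.

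SLC6A9 differed between arms with all 4 compounds. It rose in the knockout from 3.94, 2.87 and 3.49 TPM to 13.6 to 13.99 with 991, 17.6 to 18.5 with rotenone, 21.8 to 23.1 with CCCP and 29.8 to 31.6 with phenformin, each above every wild-type library of the same treatment. The differences of response were 1.20, 1.05, 0.96 and 0.65. Each subtracts the arms' DMSO means, so it also carries the lower DMSO level of the knockout (-0.38). The phenformin value ended as a call without replicate 2 (0.57, adjusted p = 0.17) or 3 (0.77, adjusted p = 0.070), and the rotenone value without replicate 2 (1.00, adjusted p = 0.057). SLC1A3 with phenformin stood at 26.4, 23.6 and 24.0 TPM in the knockout, above its 16.2 to 17.7 under DMSO (0.51 ± 0.12), but the difference from wild type did not pass (0.33 ± 0.17, adjusted p = 0.19).

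Beside SLC7A3, 6 members differed in their CCCP response, all positive (28.2 percent of all genes), 2 in phenformin (SLC6A9 positive, SLC3A2 negative, 13.9 percent) and 4 in rotenone, all positive (1.97 percent). Leaving out replicate 2 or 3 left SLC6A9 alone of these CCCP calls. For rotenone, leaving out replicate 1 ended the SLC7A11 call (0.43 to 0.35), leaving out replicate 2 ended all 4, and leaving out replicate 3 ended all but SLC6A9. The negative SLC3A2 value with phenformin (-0.23) also failed with median-ratio scaling (-0.16, adjusted p = 0.21). Its mean with phenformin was higher in the knockout, at 422 against 378 TPM, as was its DMSO level (0.39).

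Under DMSO the knockout already differed in 7 members beside SLC7A3 (38.9 percent of all genes). SLC7A5 (0.39), SLC3A2 (0.39), SLC7A11 (0.28), SLC1A5 (0.20) and SLC7A1 (0.17) were higher, and SLC6A9 (-0.38) and SLC38A2 (-0.20) lower. Among these, leaving out replicate 2 or 3 ended the calls of SLC7A11, SLC7A1 and SLC38A2, replicate 2 also that of SLC6A9, a fit of these groups alone those of all 4, and median-ratio scaling that of SLC38A2 (-0.16, adjusted p = 0.077). The 4 compounds share each arm's 3 DMSO libraries, so their responses and differences are not independent of each other. Each difference of response subtracts the arms' DMSO means, so it carries these DMSO differences with the sign turned.

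In the ESRRA table the arms differed before and after 991. Under DMSO 8 members were higher in cells without ERRalpha and none lower (21.5 percent of all genes differed), where SLC1A4 did not pass without replicate 1 (adjusted p = 0.065) nor SLC7A3 without replicate 3 (0.053). After 16 h of 991, 8 members rose and SLC1A3 fell in wild type (31.2 percent of genes higher, 15 lower). In the knockout SLC3A2 and SLC38A2 rose and 7 members fell (31.5 and 12.9 percent), and at 4 h all 10 were lower (24.2 and 20 percent). The members' median change in the knockout was -0.49 at 4 h and -0.21 at 16 h. Of the members that fell at 16 h, SLC7A5 and SLC7A3 did not pass without replicate 1 or 3 and SLC6A9 not without replicate 3. Of those at 4 h, SLC3A2 did not pass without replicate 1 or 3 and SLC7A3 not without replicate 2 or 3.

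**Figure D4:**
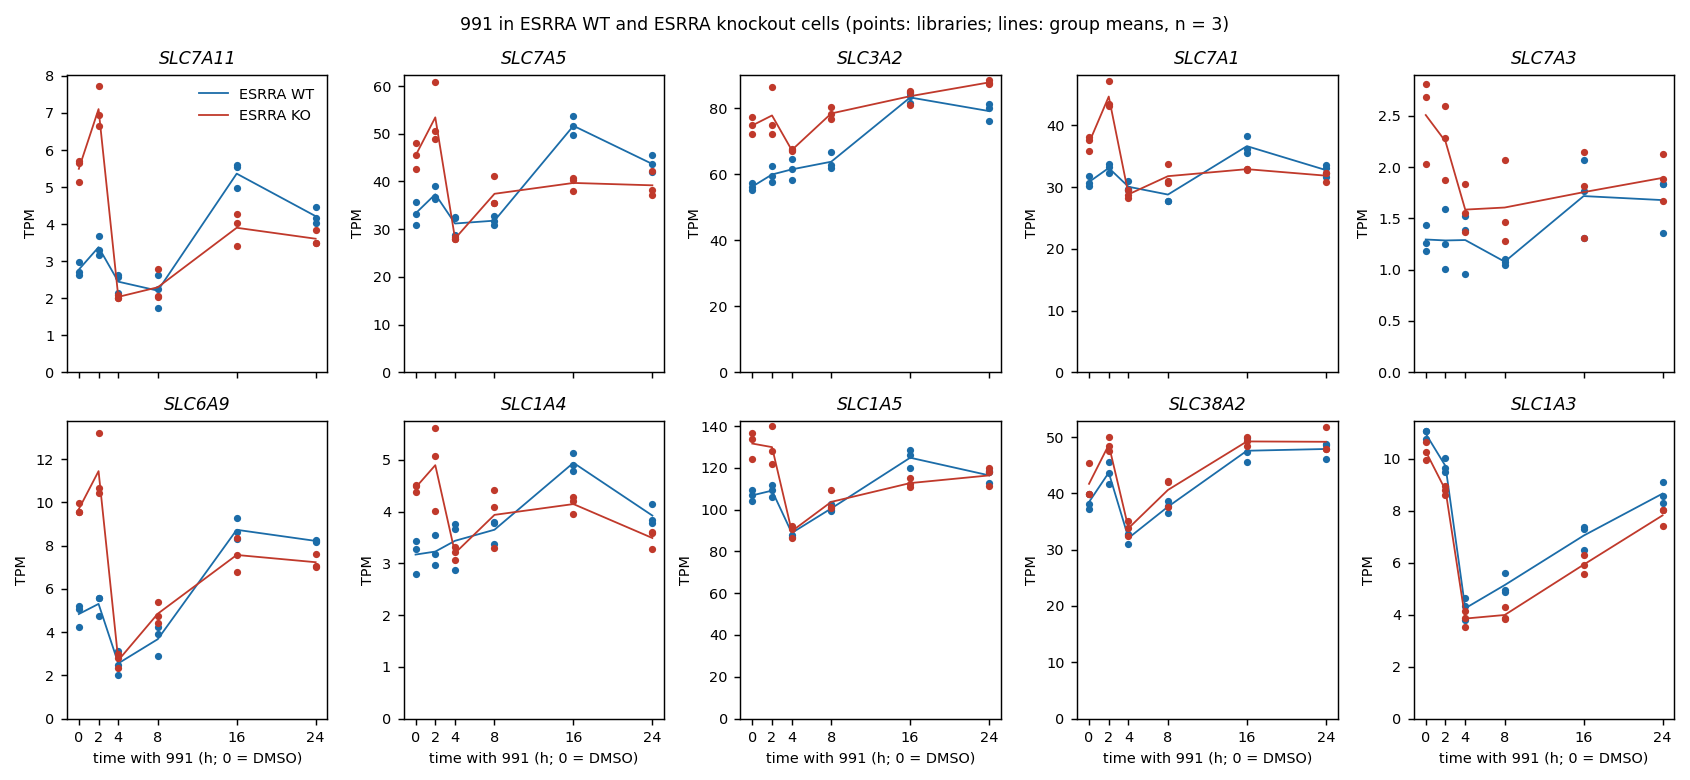
TPM of each transporter against hours with 991, up to 24 h, in the ESRRA table, points are libraries and lines group means for wild type and ESRRA knockout. SLC7A11 starts at 5.12 to 5.70 TPM in the knockout and 2.63 to 2.98 in wild type, and the arms stand at 2.01 to 2.09 and 2.13 to 2.63 at 4 h.

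SLC7A11 was at 5.12, 5.66 and 5.70 TPM in the knockout under DMSO, 2.09, 2.01 and 2.01 at 4 h and 3.40, 4.03 and 4.27 at 16 h. In wild type it was at 2.63, 2.98 and 2.71, then 2.13, 2.58 and 2.63, then 4.96, 5.58 and 5.54 TPM. The knockout started above wild type and stood below it at 16 h, with no overlap at either time. At 2 h, given as values only, SLC7A11 was at 6.65, 7.74 and 6.93 TPM in the knockout and 3.16, 3.67 and 3.30 in wild type. Both arms thus stood above their DMSO libraries before the 4 h values. SLC6A9 went from 9.97, 9.55 and 9.54 TPM in the knockout to 2.32, 2.98 and 2.78 at 4 h and 8.36, 7.57 and 6.77 at 16 h. Its wild-type libraries went from 5.06, 5.21 and 4.23 to 2.03, 3.13 and 2.50 and then 8.62, 8.30 and 9.26. At 4 h the arms overlapped for SLC6A9, and the wider fall in the knockout went with its higher DMSO level. At 2 h SLC6A9 was at 10.4, 13.2 and 10.7 TPM in the knockout, above DMSO. In wild type it was then at 5.57, 4.74 and 5.59, overlapping DMSO.

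SLC7A5 showed the same course: 45.5, 42.7 and 48.05 TPM in the knockout under DMSO, 28.3, 27.9 and 27.8 at 4 h and 40.3, 40.7 and 38.1 at 16 h. In wild type it was at 30.9, 35.8 and 33.2, then 32.3, 32.6 and 28.7, then 49.8, 53.7 and 51.5. SLC3A2 differed less once treated, at 84.8, 85.2 and 81.01 TPM in the knockout and 83.7, 84.5 and 81.6 in wild type at 16 h, from 77.4, 72.1 and 74.9 and 55.2, 57.4 and 56.3 under DMSO. Its lower response in the knockout thus went with overlapping treated levels.

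The difference of response at 16 h, knockout minus wild type, was negative for 7 members (2.84 percent of all genes in either direction). They were SLC7A11 (-1.16 ± 0.13, adjusted p = 1.2e-06), SLC6A9 (-1.06 ± 0.15), SLC7A5 (-0.81 ± 0.10, adjusted p = 3.6e-06), SLC1A4 (-0.60 ± 0.13), SLC1A5 (-0.44 ± 0.06), SLC7A1 (-0.41 ± 0.06) and SLC3A2 (-0.40 ± 0.06). SLC7A3 (-0.59 ± 0.19, adjusted p = 0.093), SLC38A2 (-0.06 ± 0.07) and SLC1A3 (-0.13 ± 0.09) did not pass. The members SLC7A11, SLC7A5, SLC1A5 and SLC7A1 passed when any replicate number was left out, SLC3A2 and SLC6A9 did not without replicate 3 and SLC1A4 in none of these fits. The same 7 were negative at 4 h (4.62 percent), led by SLC7A11 (-0.96 ± 0.13), and SLC7A11 was the member that passed there with each replicate left out. At 24 h, given as values only, the difference was -1.04 for SLC6A9 and -0.96 for SLC7A11. Each difference subtracts the arms' DMSO means, so it carries the higher DMSO level of the knockout, 0.88 for SLC6A9, 0.78 for SLC7A11, 0.61 for SLC7A3, 0.44 for SLC7A5, 0.40 for SLC3A2, 0.39 for SLC1A4, 0.30 for SLC1A5 and 0.26 for SLC7A1.

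In the TFEB and TFE3 table a total of 8 members rose and SLC1A3 fell at 16 h of 991 in wild type (59 percent of genes called in either direction), and 7 rose and SLC1A3 fell in the double knockout (48.3 percent). Median-ratio scaling lowered the median of all genes by 0.13 and 0.11 in these responses. Relative to it SLC1A5 in wild type no longer rose (-0.00079), SLC7A1 fell in both arms (-0.19 and -0.16), SLC1A5 fell in the knockout (-0.15), and SLC7A5 and SLC38A2 in the knockout did not pass (0.096 and 0.029).

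The difference of response was negative for SLC7A11 (-0.46 ± 0.11), SLC38A2 (-0.35 ± 0.06, adjusted p = 0.00030), SLC3A2 (-0.18 ± 0.05) and SLC1A5 (-0.16 ± 0.05) and positive for SLC1A3 (0.60 ± 0.10, adjusted p = 0.00013), where 12.7 percent of all genes were called. SLC38A2 in wild type went from 37.9, 39.3 and 34.9 TPM to 51.9, 51.2 and 56.8. In the double knockout it went from 51.4, 50.9 and 50.2 to 56.6, 55.3 and 58.2, so the treated arms overlapped and the DMSO arms did not. SLC1A3 went from 12.6, 13.2 and 13.1 TPM to 4.46, 4.79 and 4.65 in wild type, and from 9.48, 9.71 and 9.48 to 5.30, 5.11 and 5.92 in the knockout. SLC7A11 did not overlap between arms in either state. Its values were lower in wild type under DMSO, at 3.35 to 3.51 TPM against 3.62 to 4.35 in the knockout. That DMSO difference, 0.16 ± 0.08 knockout minus wild type, did not pass (adjusted p = 0.082). With 991 the values were higher in wild type, at 8.02, 7.91 and 9.46 against 6.67, 6.42 and 6.88.

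SLC38A2 and SLC1A3 passed with any replicate number left out. SLC7A11 did not without replicate 1 (-0.50, adjusted p = 0.064) or 3 (-0.34, adjusted p = 0.12). SLC3A2 and SLC1A5 did not with median-ratio scaling or quantile normalization, SLC3A2 also not without replicate 1 or 3, and SLC1A5 passed in none of the fits with a replicate number left out. At 24 h, given as values only, the difference was -0.58 for SLC7A11, -0.35 for SLC38A2 and 0.37 for SLC1A3.

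Under DMSO 9 members differed between these arms (51.3 percent of all genes). SLC3A2 (0.55), SLC38A2 (0.44), SLC7A5 (0.34), SLC1A4 (0.20), SLC1A5 (0.11) and SLC7A1 (0.10) were higher in the double knockout and SLC1A3 (-0.41), SLC7A3 (-0.40) and SLC6A9 (-0.36) lower. Median-ratio scaling, which moved the median of all genes by 0.11, turned SLC7A1 and SLC1A5 to -0.029 and -0.023 and left SLC1A4 at 0.093, none past the threshold. These small differences also failed in some fits with a replicate number left out, as did SLC6A9 without replicate 2 (-0.21, adjusted p = 0.12).

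In the siRNA table a total of 8 members rose and SLC1A3 fell at 16 h of 991 with control siRNA (57 percent of genes called), and 7 rose and 2 fell, SLC1A3 and SLC1A5, with siRNA against PGC1A (51.9 percent). Median-ratio scaling moved the median of all genes by 0.17 and 0.14, and relative to it SLC7A5 and SLC7A3 with control siRNA and SLC3A2, SLC7A1 and SLC6A9 with PGC1A siRNA did not pass, while SLC1A5 fell with control siRNA (-0.20) and SLC7A5 with PGC1A siRNA (-0.25). Leaving out replicate 1 or 2 ended the call of SLC7A3 with control siRNA, and of SLC6A9 with PGC1A siRNA. Without replicate 2, SLC7A5 with control siRNA (adjusted p = 0.051) did not pass. Nor did SLC7A3 (0.062) and SLC1A5 (0.053) with PGC1A siRNA. Quantile normalization ended the calls of SLC7A3 and SLC6A9 with either siRNA, and of SLC1A4 with PGC1A siRNA. SLC7A11 rose from 0.919, 1.27 and 1.16 TPM to 2.90, 2.82 and 3.13 with control siRNA. With PGC1A siRNA it went from 1.76, 2.11 and 2.11 to 3.05, 3.44 and 2.94, so the treated arms overlapped.

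SLC3A2 was the member whose response differed there (-0.35 ± 0.06, adjusted p = 0.0044), among 0.201 percent of all genes. It went from 76.03, 84.2 and 82.98 TPM to 119, 121 and 118 with control siRNA and from 123, 122 and 121 to 138, 141 and 145 with PGC1A siRNA. The call ended without replicate 2 (adjusted p = 0.37) or 3 (0.13) and in a fit of these groups alone (0.062). With a replicate block 2 members passed. Before treatment 6 members were higher with PGC1A siRNA (24.2 percent of all genes): SLC3A2 (0.59 ± 0.04, adjusted p = 1.9e-11), SLC7A11 (0.50), SLC38A2 (0.30), SLC1A3 (0.28), SLC1A5 (0.23) and SLC7A5 (0.21). SLC7A5 did not pass with median-ratio scaling (0.18) or quantile normalization (0.16). Without replicate 2 the calls of SLC3A2 and SLC7A11 were the 2 that passed.

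The FNIP1 table rests on the SA5 libraries that stand apart, so its values are given with and without them. SLC7A11 was at 1.72, 1.65 and 1.65 TPM with wild-type FNIP1 under DMSO and 2.64, 3.21 and 2.48 after 16 h of 991. With SA5 it was at 0.648, 2.06 and 2.05 under DMSO, where 0.648 is the library that stands apart, and at 4.75, 4.26 and 5.21 with 991. With all libraries 3 members passed with wild-type FNIP1 (SLC3A2 0.43 and SLC6A9 0.50 higher, SLC1A5 -0.26 lower, 16.5 percent of all genes called) and 7 rose with SA5 (44.9 percent). No member differed in response (0.0150 percent of all genes, lowest adjusted p = 0.29 for SLC6A9).

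The share of all genes called without these 2 libraries is not given here, so the counts below are not compared with those above. Without these 2 libraries 7 members passed with wild-type FNIP1: SLC7A11 (0.49), SLC6A9 (0.50), SLC3A2 (0.43) and SLC1A4 (0.21) higher, and SLC1A3 (-0.70), SLC1A5 (-0.26) and SLC7A5 (-0.19) lower. With SA5 there were also 7, SLC6A9 (1.12), SLC7A11 (0.91), SLC7A3 (0.68), SLC1A4 (0.58), SLC3A2 (0.57) and SLC7A5 (0.24) higher and SLC1A3 (-0.93) lower. SLC38A2, called with all libraries (0.86), was at 0.16 (adjusted p = 0.13). The SLC7A5 responses then differed (0.43, adjusted p = 0.012). Its libraries stood at 39.999, 37.8 and 36.9 TPM under DMSO and 31.7, 33.2 and 35.3 with 991 for wild-type FNIP1, and at 20.8, 41.1 and 39.4 and then 47.6, 49.1 and 46.9 for SA5, 20.8 being the library that stands apart.

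Under DMSO SLC7A3 was the member that differed in the FNIP1 table (10.3 percent of all genes), at 1.81, 3.61 and 3.07 TPM with SA5 against 1.26, 1.17 and 0.858. The log2 difference was 0.84 with all libraries and 1.05 without the 2. It did not pass without replicate 2 (0.72, adjusted p = 0.092) or 3 (0.70, adjusted p = 0.12) or in a fit of these groups alone. Median-ratio scaling moved the median of all genes by 0.36 in the SA5 response, by 0.30 in the other direction under DMSO and by 0.28 in the difference. Relative to it SLC7A5, SLC3A2 and SLC38A2 did not pass in the SA5 response, and SLC1A5 (-0.47) and SLC1A3 (-0.61) fell.

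**Figure D5:**
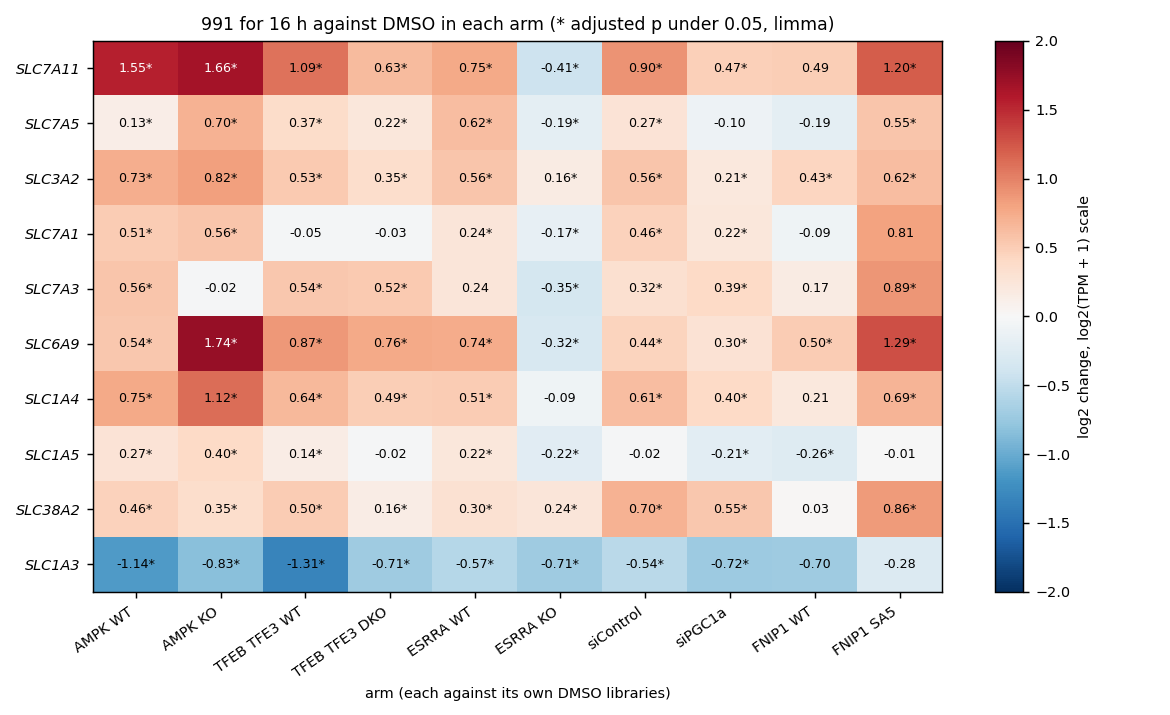
Heat map of the log2 change from DMSO after 16 h of 991 for the 10 transporters (rows) in the 10 arms (columns), colour gives the limma estimate and a star an adjusted p under 0.05. SLC7A11 is higher in the arms other than the ESRRA knockout, where it is -0.41, and SLC1A3 is below 0 in each arm.

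Read across arms, 991 at 16 h raised SLC7A11 past the threshold in 8 of 10, by 1.55 and 1.66 in the AMPK table, 1.09 and 0.63 in the TFEB and TFE3 table, 0.90 and 0.47 with control and PGC1A siRNA, 0.75 in the ESRRA wild type and 1.20 with SA5. It was 0.49 with wild-type FNIP1, not past the threshold there with all libraries, and fell by 0.41 in the ESRRA knockout. Without the 2 SA5 libraries that stand apart the SA5 rise of SLC7A11 was 0.91, and the 0.49 with wild-type FNIP1 passed. In a fit of only the groups compared, with all libraries, the SA5 rise of SLC7A11 did not pass (adjusted p = 0.23). SLC3A2 rose in all 10 arms, by 0.16 to 0.82. The lowest value, 0.16 in the ESRRA knockout, did not pass with median-ratio scaling, nor did those of the FNIP1 arms (0.34 and 0.16) and of PGC1A siRNA (0.054). With all libraries SLC1A3 fell past the threshold in 8 arms, by 0.54 to 1.31, and was at -0.70 and -0.28 in the FNIP1 arms. Without the 2 SA5 libraries that stand apart it fell past the threshold in both, with wild-type FNIP1 (-0.70) and with SA5 (-0.93). The 5 control arms share the treatment and not a DMSO group, and their SLC7A11 values ran from 0.49 to 1.55.

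Other genes of the response were counted from a list of 40 ATF4 and CHOP stress response genes, all tested in the AMPK table. The list holds ATF4 and DDIT3 themselves and was chosen with earlier results of these data known, so its shares are a description. At 16 h in wild type 31 were higher and 4 lower with 991 (median 0.48), 36 and 2 with CCCP (1.10), 37 and 3 with phenformin (1.52) and 33 and 3 with rotenone (0.62). Among all genes 41.9 percent were higher and 26.9 lower with 991, 44.1 and 26.6 with CCCP, 45.3 and 34.9 with phenformin and 36.2 and 29.2 with rotenone, against 77.5 to 92.5 percent of this list higher. ATF4, the central factor, rose by 0.87 to 1.12 with each of the 4, DDIT3 (CHOP) by 1.20 with rotenone, 1.52 with 991, 2.46 with CCCP and 4.25 with phenformin, and ASNS, asparagine synthetase, by 1.29 with 991, 1.58 with rotenone, 2.00 with CCCP and 2.11 with phenformin. The ATF4 transcript thus stayed within a narrow range over the compounds, and ATF4 protein was not measured. DDIT3 rose less with rotenone than with 991, whereas SLC7A11 and SLC6A9 rose more.

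At 8 h of 991 the AMPK knockout exceeded wild type in response for 31 of the 40 and none was lower (21 percent of all genes called in either direction, list median 0.49, all genes -0.07). ASNS rose by 0.21 in wild type and 1.13 in the knockout (difference 0.92) and ATF4 by 0.66 and 1.16 (difference 0.50). In the ESRRA table, 21 of 39 had a lower response in the knockout at 16 h and none a higher (2.84 percent of all genes called, list median -0.42, all genes 0.01). ASNS differed by -1.27 and DDIT3 by -0.54, whereas ATF4 did not pass (-0.25, adjusted p = 0.079). Under DMSO 25 of these 39 were higher in the ESRRA knockout and 1 lower (21.5 percent of all genes), with ASNS higher by 0.98 and ATF4 by 0.29. In the TFEB and TFE3 table, 24 of 39 had a lower response in the double knockout at 16 h and none a higher (12.7 percent of all genes called, list median -0.23, all genes -0.0087). DDIT3 differed by -1.65, whereas ASNS did not pass (-0.10, adjusted p = 0.32).

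Other amino acid transporters moved in both directions. Of 42 listed, 18 passed the filter in the AMPK table, and at 16 h in wild type 10 were higher and 4 lower with 991, 6 and 4 with CCCP, 10 and 4 with phenformin and 9 and 5 with rotenone. As shares, 55.6, 33.3, 55.6 and 50 percent were higher and 22.2, 22.2, 22.2 and 27.8 lower, against 41.9, 44.1, 45.3 and 36.2 percent of all genes higher and 26.9, 26.6, 34.9 and 29.2 lower. SLC38A9, the lysosomal arginine sensor, rose by 1.00, 0.79, 0.85 and 0.60 with 991, CCCP, phenformin and rotenone. SLC6A6, the taurine carrier, fell with 991 (-1.09), CCCP (-1.12) and rotenone (-0.88) and rose with phenformin (0.71), while SLC7A6, another SLC3A2 partner, fell with all 4 (-0.25 to -0.56). Of 18 NRF2 targets 14 were tested, and 5 were higher and 2 lower with 991, 3 and 6 with CCCP, 7 and 5 with phenformin and 5 and 2 with rotenone. The shares higher were 35.7, 21.4, 50 and 35.7 percent, against 41.9, 44.1, 45.3 and 36.2 percent of all genes. Those lower were 14.3, 42.9, 35.7 and 14.3, against 26.9, 26.6, 34.9 and 29.2. With 14 genes tested, no result about the list is read from these shares. HMOX1, heme oxygenase, chosen after its values were seen, rose by 2.27 with phenformin, where 5 of the 14 fell.

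The genes most like each member were found by Pearson's r of mean log2(TPM + 1) over the 34 groups of the AMPK table, as a description without a test, since the groups share 2 arms and time runs through all of them. SLC7A11 lay closest to PSAT1 (0.970), of serine synthesis, ASNS (0.966) and ZCCHC8 (0.956), and SLC6A9 to PSPH (0.963), also of serine synthesis, NHSL1 (0.959) and PSAT1 (0.955). SLC7A1 lay closest to STC2 (0.947), ZC3H14 (0.941) and RANBP10 (0.940). SLC1A4 lay closest to RPS6KA2 (0.950), AJUBA (0.947) and ALDH1L2 (0.938), a mitochondrial folate enzyme, and SLC1A5 to STK40 (0.951), the tRNA ligase IARS (0.937) and NCOR1 (0.933), a corepressor. SLC7A5 was most like MIR6775 (0.983), which lies within it, and then SLC35B1 (0.948) and YARS (0.946), a tRNA ligase. SLC3A2 was most like UBE2R2 (0.941), ABL1 (0.939) and B4GALT1 (0.925), and SLC38A2 like CHD2 (0.958), ESCO1 (0.939) and CDADC1 (0.939). SLC1A3 was most like UBFD1 (0.911), NPEPPS (0.891) and HCFC1 (0.886), and SLC7A3 like ACSS3 (0.981), EDIL3 (0.978) and RUNX3 (0.978). SLC7A3 is near 0 in all knockout groups, so its r mostly marks the split between the arms and not a shared response.

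Among the members themselves, SLC7A11 was most like SLC6A9 (r = 0.966) and SLC1A5 (0.946), and less like its own partner SLC3A2 (0.853) and SLC7A5 (0.862). It had no such likeness to SLC1A3 (0.068) or to SLC7A3 (-0.042), which is near 0 in all knockout groups.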

How the data were processed

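The authors deposited 5 tables of TPM per gene for 240 polyA libraries, with 27234 genes listed in each, and no counts, so depth is unknown and no count test was used. Per the submitters' processing notes FastQC, STAR and HOMER were used with GRCh38, without versions; the TPM of a library sum to 396341 to 449208 and were used as deposited. Each table was fitted with limma 3.58.1 in R 4.3.3 (lmFit and eBayes with trend) on log2(TPM + 1), a mean per group, over genes with at least 1 TPM in at least 3 libraries (13317 to 13746 genes). P-values were adjusted by Benjamini-Hochberg per comparison over these genes, and a call is an adjusted p under 0.05. A log2 change on this scale understates changes of low genes. Groups come from titles and tags.

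The scripts were tested on simulated data. The members and gene lists were chosen with earlier results of these data known. The text names all 10 members, up to 4 genes with the largest or smallest change per list with ATF4, DDIT3 and ASNS, and the 3 genes most like each member. HMOX1 was chosen after its values were seen. Alternatives were a pseudocount of 0.1, no filter, median-ratio scaling, quantile normalization, a fit of only the groups compared, a replicate block and each replicate number left out; leaving out the SA5 libraries that stand apart was added after seeing the data. Tables were written with pandas 2.3.3 in Python 3.11.15 and plots with matplotlib 3.10.9.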

Additional observations from a re-analysis of the deposited data

Results flagged for a closer look

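Member responses that differed between an altered arm and its control, by the test of the difference itself, number 50 over the AMPK table (991 at 4, 8 and 16 h, the other compounds at 16 h), the ESRRA table (4 and 16 h) and the other tables (16 h). They are given here as log2 differences of response. Of the 50, 4 are SLC7A3 in the AMPK table, which is near 0 in every knockout library and passed the filter through wild type alone, so these say nothing of a response in the knockout. Of the other 46, 18 passed with any replicate number left out.

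In the AMPK table, knockout minus wild type, 991 at 4 h gave 1.04 for SLC6A9, 0.50 for SLC7A5, 0.32 for SLC1A4, 0.27 for SLC1A5 and 0.26 for SLC3A2. At 8 h it gave 1.55 for SLC6A9, 0.93 for SLC7A11, 0.67 for SLC7A5, 0.55 for SLC3A2, 0.46 for SLC1A4 and 0.38 for SLC1A5. At 16 h it gave 1.20 for SLC6A9, 0.57 for SLC7A5, 0.37 for SLC1A4 and -0.58 for SLC7A3.

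CCCP at 16 h gave 0.96 for SLC6A9, 0.34 for SLC1A4, 0.31 for SLC38A2, 0.27 for SLC7A1, 0.22 for SLC3A2, 0.21 for SLC7A5 and -1.10 for SLC7A3. Phenformin gave 0.65 for SLC6A9, -0.23 for SLC3A2 and -0.69 for SLC7A3, and rotenone 1.05 for SLC6A9, 0.43 for SLC7A11, 0.38 for SLC1A4, 0.31 for SLC7A5 and -0.43 for SLC7A3.

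In the ESRRA table the difference with 991 at 4 h was -0.96 for SLC7A11, -0.81 for SLC6A9, -0.58 for SLC7A5, -0.47 for SLC1A4, -0.32 for SLC7A1, -0.28 for SLC1A5 and -0.27 for SLC3A2. At 16 h it was -1.16 for SLC7A11, -1.06 for SLC6A9, -0.81 for SLC7A5, -0.60 for SLC1A4, -0.44 for SLC1A5, -0.41 for SLC7A1 and -0.40 for SLC3A2. With TFEB and TFE3 deleted it was -0.46 for SLC7A11, -0.35 for SLC38A2, -0.18 for SLC3A2, -0.16 for SLC1A5 and 0.60 for SLC1A3. With PGC1A siRNA it was -0.35 for SLC3A2.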

How the results depend on the processing

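Of 3950 values of single members under the alternatives, 3654 kept direction and side of the threshold, 236 fell below it, 57 rose past it and 3 reversed. With median-ratio scaling SLC1A5 in the wild-type 991 16 h response of the TFEB and TFE3 table was -0.00079, and under DMSO SLC7A1 and SLC1A5 were -0.029 and -0.023. Counts of members that passed, which for AMPK differences include SLC7A3 here, stayed within 1.5 times in 352 of 395 fits. A fit of only the groups compared moved the count from 3 to 6 (991 16 h, wild-type FNIP1), 7 to 0 (SA5), 5 to 2 (AMPK difference, 991 4 h), 5 to 1 (rotenone difference), 5 to 3 (TFEB and TFE3 difference), 7 to 2 (ESRRA difference, 4 h), 1 to 0 (PGC1A difference), 8 to 4 (AMPK knockout, DMSO) and 1 to 0 (SA5, DMSO). Quantile normalization moved wild-type FNIP1 to 5, the rotenone difference and the TFEB and TFE3 difference to 3 and SA5 under DMSO to 2. Median-ratio scaling moved the last of these also to 2 and the TFEB and TFE3 difference to 3, and a pseudocount of 0.1 the rotenone difference to 3. Without SA5 DMSO replicate 1 the wild-type FNIP1 count was 6, and without both SA5 libraries that stand apart it was 7 and that of the FNIP1 difference 1.

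Leaving out each replicate number moved counts to 1 to 6 (wild-type FNIP1, 991 16 h), 2 to 5 (AMPK difference, 991 4 h), 2 to 7 (CCCP), 1 to 3 (phenformin), 0 to 4 (rotenone), 2 to 4 (TFEB and TFE3 difference), 1 to 5 and 4 to 6 (ESRRA difference, 4 and 16 h), 0 to 1 (PGC1A difference), and under DMSO 4 to 9 (AMPK), 0 to 2 (SA5) and 2 to 5 (PGC1A siRNA). Nothing in the labels says what a replicate number marks. In the AMPK table the deviations of same-numbered libraries had a median correlation of 0.0514, against -0.0242 for different numbers. There 34.6 percent of the same-numbered pairs were over 0.1. A replicate block gave 318 member calls in all comparisons against 312 without it, moved the PGC1A difference from 1 to 2 and no other count by over 1.5 times.

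Counts over all genes moved by over 1.5 times in at least 1 alternative in 23 of 43 comparisons. In a fit of only the groups compared they went from 5984 to 0 (SA5 response), 1375 to 2 (SA5 under DMSO), 27 to 1 (PGC1A difference), 2196 to 6804 (wild-type FNIP1), 1641 to 82 (AMPK difference, 991 4 h), 2856 to 879 (8 h), 268 to 58 (rotenone), and 618 to 20 and 380 to 159 (ESRRA, 4 and 16 h), the last 5 being differences of response. Leaving out a replicate number gave 61 to 158 for the ESRRA difference at 16 h and 14 to 186 at 4 h. Median-ratio scaling moved the share of higher calls by over 10 points in 22 of the 41 comparisons with at least 100 genes called, from between 16.36 and 87.18 percent to between 46.35 and 56.03 percent. Depth is unknown, so no limit of detection is given, and SLC7A3 in the AMPK knockout and PPARGC1A are near 0.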
